A study of Bos taurus with 43 samples.

Results

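In the uterine lumen of beef cows on day 4 of the cycle, 14 genes were clearly detected in some animals and almost absent in others. The 14 genes were chosen by their own levels. Each had at least 5 CPM (counts per 1000000 counts of the library) in 8 or more of 43 cows, and 0.2 CPM or less in 8 or more other cows. They are 14 of the 27570 genes in the deposited tables, of which 23122 had at least 1 count. The levels that chose them are given below as a description and were not tested. One further gene met both limits and was left out by the rule.

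The samples were cytology brushings of the endometrial lumen from multiparous Angus x Brahman cows, 1 poly-A RNA library per cow. All cows were synchronized with an intravaginal progesterone device, GnRH analogue and prostaglandin F2alpha analogue, were seen in estrus, and were brushed and bled on day 4 after the final GnRH injection (day 0). On day 7 each received 1 in vitro-produced embryo, and pregnancy was read around day 30. The groups were 25 pregnant and 18 nonpregnant cows, of which block 2, the second round of synchronization, held 14 and 8, and block 1 held 11 and 10. Blood progesterone (P4) on day 4 lay between 0.27 and 1.88 in a unit that the labels do not give. Every cow is a separate animal, and no cow was sampled more than once.

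The luminal epithelium lines the uterine cavity and is the surface that an embryo placed in the uterus meets first. In the days after estrus, rising progesterone from the young corpus luteum acts on this epithelium and on the stroma beneath it. A brush lifts mainly surface cells and can also carry leukocytes, blood and cells of deeper or neighbouring tissue. In such a bulk sample fewer cells of a type and less RNA per cell cannot be told apart. The identifiers of the 14 genes could not be paired with symbols in the tables used here, so no role, position or sequence is given for them, and the labelled tissue could not be checked against its marker genes.

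Library totals ranged from 11159501 to 23572549 counts with a median of 15544498, and 16705 to 18842 genes had at least 1 count. At these depths 5 CPM stands for 55.8 to 118 reads and 0.2 CPM for 2.23 to 4.71 reads. A count of 0 allows a level of up to 0.127 CPM in the deepest library and 0.269 CPM in the shallowest (3 counts of the total), for counting error only. A low level in a single cow was therefore resolved to a few reads, while the levels above 5 CPM rested on 59 reads or more. The tables hold 12571 genes at 5 CPM or above in 8 or more cows. Only 245 of those were at 0.2 CPM or below in any cow, 42 were so in 4 or more cows and 15 in 8 or more, the gene left out included. For brevity a gene is called present in a cow at 5 CPM or above, absent at 0.2 CPM or below, and intermediate between these limits.

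The 14 genes ran from an almost clean division of the cows to a continuous spread. The number of cows at an intermediate level was 1 for ENSBTAG00000016063, 6 for ENSBTAG00000038128, 6 for ENSBTAG00000039664 and 12 for ENSBTAG00000015924. For the other 10 genes it lay between 16 and 27. The median level over the 43 cows was at or above 4.26 CPM in 3 genes, 0 in ENSBTAG00000016063, 0.0618 CPM in ENSBTAG00000039664, and between 0.405 and 1.34 CPM in the other 9. Summed over the cows in which each gene was absent, its reads numbered between 2 and 16, a pooled level of 0.0115 to 0.0988 CPM. Summed over the cows in which it was present, the pooled level was 9.04 to 30.5 CPM.

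**Figure D1:**
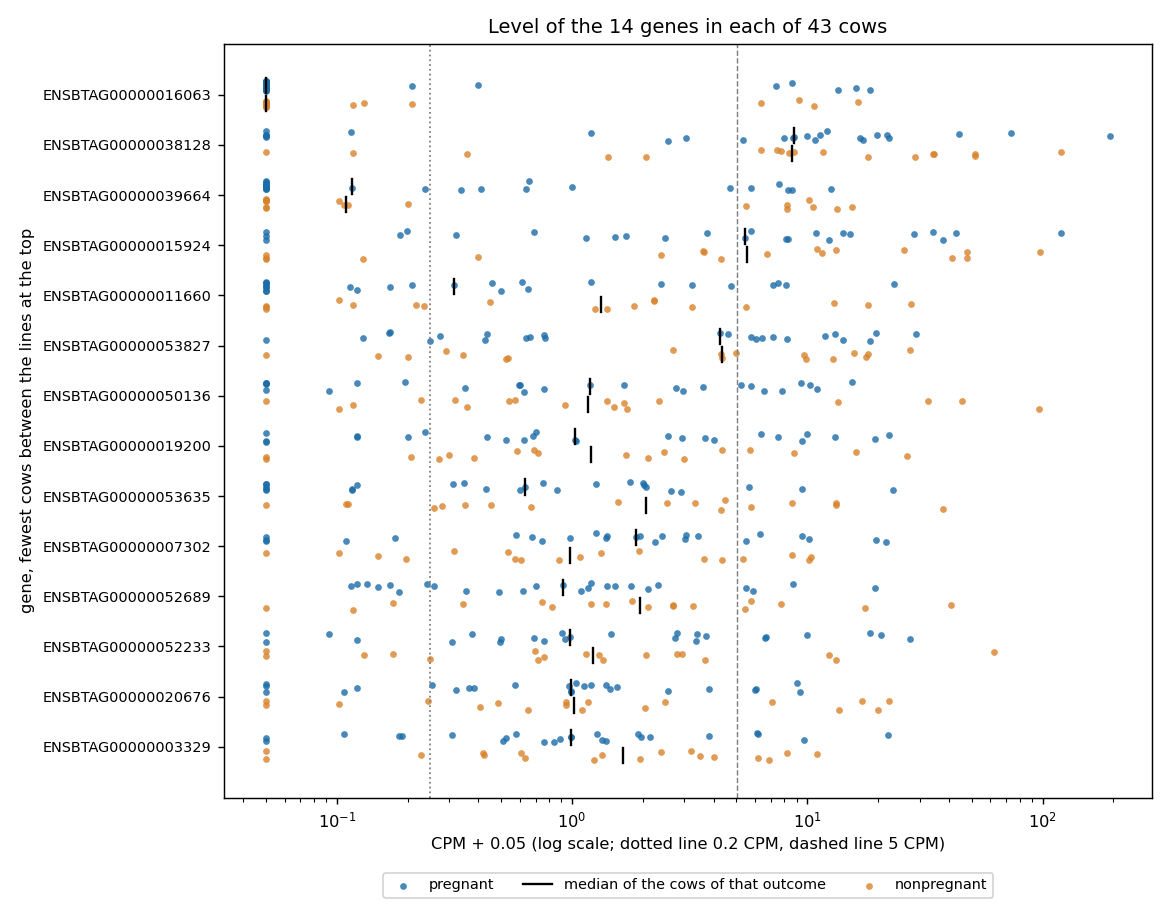
Level of each of the 14 genes in each cow, as CPM plus 0.05 on a log scale, with 1 point per cow, pregnant cows above nonpregnant cows in each row and a black tick at the median of each outcome. ENSBTAG00000016063 leaves an empty stretch between 0.347 and 6.28 CPM, whereas the genes in the lower rows fill the range between the 0.2 and 5 CPM lines.

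ENSBTAG00000016063 divided the cows most sharply. It was present in 9 cows and absent in 33, of which 29 had no read at all. Its levels in the 5 pregnant cows with the gene present were 18.5, 16, 13.4, 8.59 and 7.30 CPM. In the 4 nonpregnant cows with the gene present they were 16.4, 10.6, 9.15 and 6.28 CPM. The highest level below these was 0.347 CPM (6 reads, pregnant replicate 13), so neighbouring cows in the ranking were 18.1-fold apart at that point. Within the 9 cows the levels spanned only 2.94-fold, the narrowest span but 1 of the 14 genes. Both outcomes and both blocks held cows of either kind, with the gene present in 5 of 25 pregnant and 4 of 18 nonpregnant cows, and in 5 of 22 cows of block 2 and 4 of 21 cows of block 1.

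The narrowest span of present levels was that of ENSBTAG00000039664. Spans little wider were seen in 2 of the graded genes described below, 3.62-fold in ENSBTAG00000003329 and 3.72-fold in ENSBTAG00000020676. ENSBTAG00000039664 was present in 12 cows at 5.46 to 15.5 CPM, a 2.84-fold span, and absent in 25. Its widest gap lay between 0.950 and 4.63 CPM, with 30 cows below and 13 above. Of the pregnant cows 5 of 25 had it present, and of the nonpregnant cows 7 of 18. The 6 cows at an intermediate level were all pregnant, and 0 nonpregnant cows were intermediate. The gene's fitted log2 fold change for pregnant over nonpregnant cows was -1.44 ± 0.91 (SE, edgeR unadjusted p = 0.120) and did not pass the threshold. In block 2 it was present in 8 of 22 cows and absent in 10, and in block 1 present in 4 of 21 and absent in 15.

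ENSBTAG00000038128 was the most widely present of the 14 genes and the highest. With 29 cows present, it was absent in 8 and intermediate in 6, with a widest gap between 0.309 and 1.15 CPM that left 9 cows below and 34 above. In pregnant cows its level ran from 0 to 194 CPM with a median of 8.74, and in nonpregnant cows from 0 to 120 CPM with a median of 8.52. Where it was present its level spanned 36.8-fold, the widest span of the 14 genes, so its amount varied widely among the cows that had it. The 3 highest cows carried 43.9% of its summed CPM. The 8 cows without it had 2 reads of the gene between them.

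ENSBTAG00000015924 likewise had a wide range above the upper limit. It was present in 22 cows, intermediate in 12 and absent in 9, and its highest level was 120 CPM in pregnant replicate 13, followed by 97.5 CPM in nonpregnant replicate 6 and 47.9 CPM in nonpregnant replicate 12. Its widest ratio between neighbouring cows above 0.2 CPM was 2.03-fold, between 47.9 and 97.5 CPM, so its levels were graded rather than divided. The median of the pregnant cows was 5.39 CPM, and that of the nonpregnant cows 5.49 CPM. It was absent in 5 of the 14 cows of highest P4 and in 0 of the 14 cows of lowest P4. The fitted slope on P4 is given below and did not pass the threshold.

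ENSBTAG00000053827 was present in 18 cows, intermediate in 17 and absent in 8. Its cows fell on either side of a gap between 0.721 and 2.64 CPM, with 19 below and 24 above. It was absent in 1 of 22 cows of block 2 and in 7 of 21 cows of block 1, while the medians of the blocks were 4.74 and 4.20 CPM in the same order. Its fitted log2 fold change for block 2 over block 1 was 0.17 ± 0.69 (SE, edgeR adjusted p = 0.925). In this gene the absent cows still had 13 reads between them, a pooled 0.0988 CPM, the highest of the 14 genes.

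The remaining 9 genes were graded as well. Their widest ratio between neighbouring cows above 0.2 CPM was at most 2.27-fold, and in 6 of them it lay just below the 1 or 2 highest cows. ENSBTAG00000050136 reached 96.4 CPM in nonpregnant replicate 12, which alone held 33.8% of its summed CPM, then 45.3 CPM in nonpregnant replicate 9 and 32.6 CPM in nonpregnant replicate 7. ENSBTAG00000052233 reached 62.1 CPM in nonpregnant replicate 9 (28.6% of its sum) and 27.3 CPM in pregnant replicate 22. ENSBTAG00000052689 reached 40.6 CPM and ENSBTAG00000053635 reached 37.7 CPM, in nonpregnant replicates 12 and 9. The highest levels of the other 5 lay between 21.6 and 27.6 CPM. ENSBTAG00000011660 and ENSBTAG00000019200 were present in 8 and 11 cows, ENSBTAG00000007302 in 10, ENSBTAG00000020676 in 9 and ENSBTAG00000003329 in 8.

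Membership near the limits rested on small differences. ENSBTAG00000011660 was just inside, with its 8th highest cow at 5.42 CPM, followed by ENSBTAG00000052689 at 5.46 and ENSBTAG00000053635 at 5.61. Just outside were ENSBTAG00000013662, ENSBTAG00000051698 and ENSBTAG00000007977, with an 8th highest cow at 4.93, 4.92 and 4.87 CPM. At the lower limit the 8th lowest cow was at 0.2 CPM in ENSBTAG00000053827, 0.178 CPM in ENSBTAG00000003329 and 0.150 CPM in ENSBTAG00000019200, while ENSBTAG00000054086, ENSBTAG00000038064 and ENSBTAG00000017627 missed it at 0.212, 0.236 and 0.239 CPM.

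No 2 cows had the same combination of states over all 14 genes (43 distinct combinations in 43 cows). By present or not present alone there were 40 distinct combinations. With 14 genes in 3 states very many combinations are possible, so the lack of repeats is no finding about the cows. A pregnant cow had 1 to 10 of the 14 genes present with a median of 3, and a nonpregnant cow 2 to 9 with a median of 3.5. A cow of block 2 had 2 to 10 present with a median of 4, and a cow of block 1 had 1 to 9 with a median of 3. Pregnant replicate 11 had 10 genes present and none absent. Nonpregnant replicate 9 had 9 present, pregnant replicate 20 had 8, and pregnant replicate 5 only 1. Their depth and detected genes lay within the range of the other cows, with 13310667 counts and 18359 detected genes in pregnant replicate 11, 12563451 and 17634 in nonpregnant replicate 9, and 13820170 and 18051 in pregnant replicate 5.

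**Figure D2:**
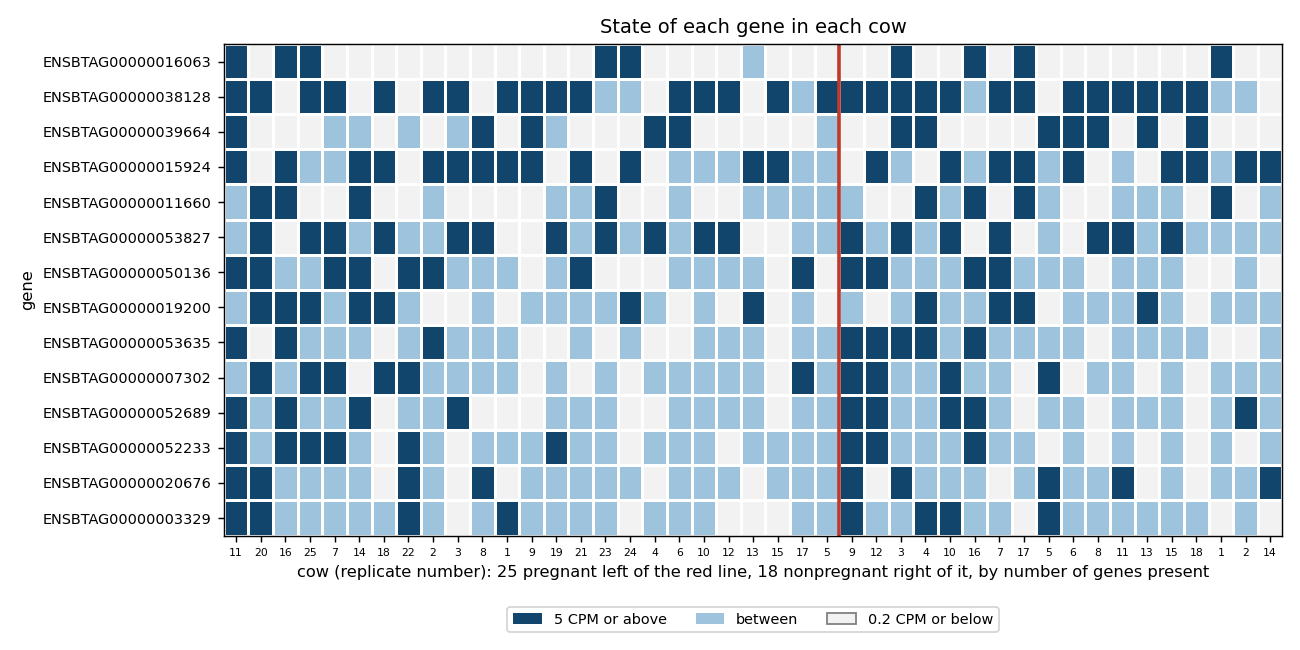
State of each gene (rows) in each cow (columns), with pregnant cows left of the red line and nonpregnant cows right of it, both ordered by the number of genes present. Dark cells mark 5 CPM or above, light blue cells an intermediate level and grey cells 0.2 CPM or below; pregnant replicate 11, at the far left, has 10 dark cells and no grey cell.

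Over the 4 genes with the fewest intermediate cows, 14 of the 16 possible combinations of present and not present occurred. In 2 cows none of the 4 was present. In 17 cows 1 of them was present, in 18 cows 2, in 5 cows 3 and in 1 cow all 4. ENSBTAG00000016063 and ENSBTAG00000038128 were the pair most often in opposite states, in 26 cows, of which 25 had the second without the first. ENSBTAG00000015924 and ENSBTAG00000039664 were opposed in 19 cows, as were ENSBTAG00000038128 and ENSBTAG00000039664. In each pair the common gene was present in 22 or 29 cows and the rarer one in 9 or 12. The rank correlations of the 3 pairs over the 43 cows were -0.191, -0.132 and 0.136 (Spearman rho).

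Most pairs of the genes had a rank correlation near 0. The 91 pairs had a median Spearman rho of 0.0668 and ranged from -0.458 (ENSBTAG00000015924 and ENSBTAG00000053827) to 0.705. All pairs share the same 43 libraries, and pairs named here were picked by their value, so no p is given. The 5 highest values all joined 4 of the graded genes. ENSBTAG00000050136 had a rho of 0.705 with ENSBTAG00000052689, 0.656 with ENSBTAG00000053635 and 0.564 with ENSBTAG00000052233. On log2(CPM + 0.05), Pearson's r of the first pair was 0.733, and 0.664 without the 2 cows farthest from the median of ENSBTAG00000050136. Its rho was 0.644 within block 2 and 0.815 within block 1. The pair was present together in 5 cows, absent together in 7, and in 0 cows was 1 present while the other was absent. ENSBTAG00000052689 had a rho of 0.565 with ENSBTAG00000053635 and 0.523 with ENSBTAG00000052233, whereas the remaining pair, ENSBTAG00000052233 and ENSBTAG00000053635, had 0.295. Outside this set, ENSBTAG00000007302 and ENSBTAG00000053827 had the highest value, at 0.458 (Pearson's r 0.551 on the same log2 scale), and were never in opposite states.

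**Figure D3:**
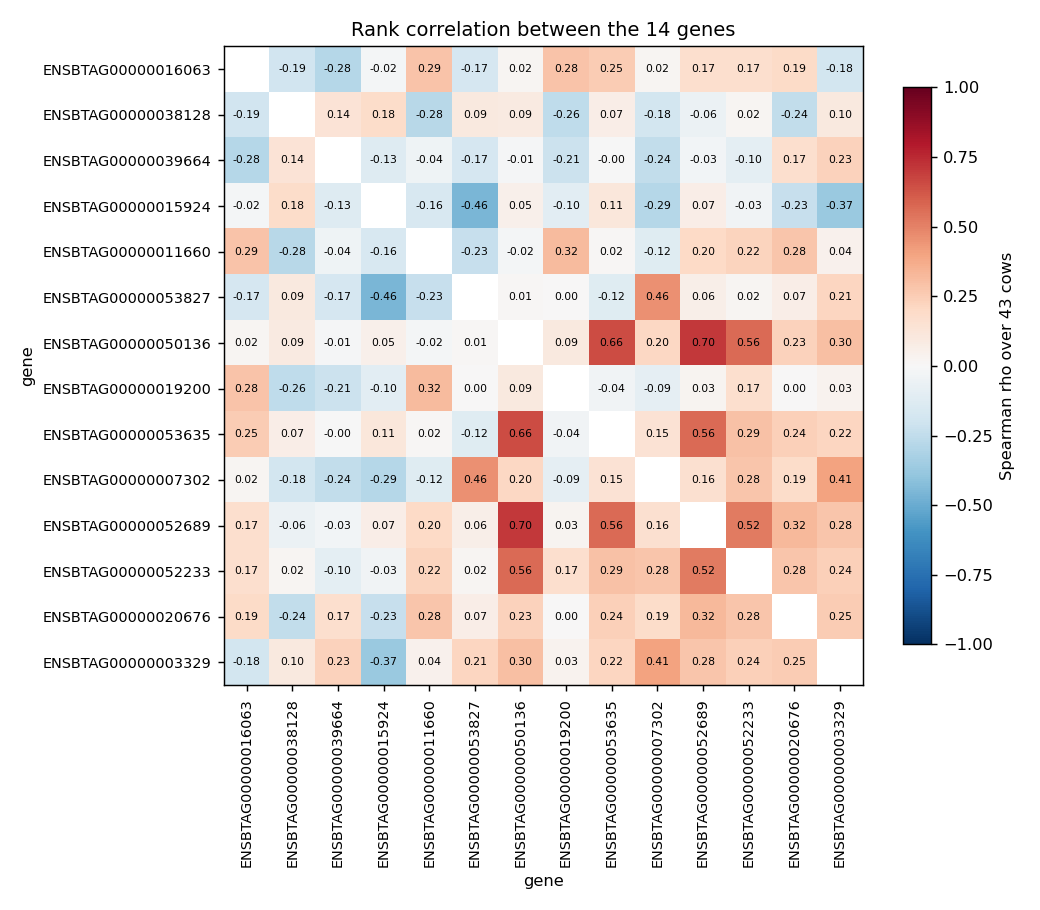
Spearman rho over 43 cows for every pair of the 14 genes, from blue (negative) to red (positive). The darkest red cells join ENSBTAG00000050136 with ENSBTAG00000052689 (0.705) and with ENSBTAG00000053635 (0.656), and most other cells are pale.

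Genes that followed the same cows were sought among the 15938 genes tested for each of the 14. The matches are named for 5 members, those with the most even numbers of present and absent cows among the 10 with the fewest intermediate cows. ENSBTAG00000052689 tied for the last places of those 10 and missed them by its lower median where present. ENSBTAG00000050136 was most like ENSBTAG00000050062, ENSBTAG00000048048 and ENSBTAG00000017305, with a rho of 0.839, 0.795 and 0.789. Of its 14 genes with an absolute rho of at least 0.7, 12 (85.7%) were also among the 16 of ENSBTAG00000052689 (75% of those). ENSBTAG00000019200 was most like ENSBTAG00000038412 (rho 0.706), ENSBTAG00000008161 (0.658) and ENSBTAG00000034372 (0.656). ENSBTAG00000007302 reached at most 0.695, with ENSBTAG00000002688, and then 0.683 with ENSBTAG00000034323 and 0.681 with ENSBTAG00000011279. ENSBTAG00000053635 was most like its fellow member ENSBTAG00000050136, then ENSBTAG00000015649 (0.649) and ENSBTAG00000050062 (0.627). ENSBTAG00000053827 was opposed to ENSBTAG00000016148 (-0.76) and alike to ENSBTAG00000001793 (0.711) and ENSBTAG00000006213 (0.653). The highest values of all lay outside these 5, and were chosen for naming after they were seen. They were 0.912 for ENSBTAG00000003329 with ENSBTAG00000033190 and 0.871 for ENSBTAG00000052689 with ENSBTAG00000017305. Neither of these matches was absent in any cow, with medians of 37.8 and 13.6 CPM and lowest levels of 2.6 and 0.315 CPM. Other named matches, such as ENSBTAG00000048048, fell to 0 CPM. The members differed widely in how many other genes varied with them. ENSBTAG00000003329 had 219 genes at an absolute rho of at least 0.7, whereas 7 members had 0, among them ENSBTAG00000016063, ENSBTAG00000038128, ENSBTAG00000039664 and ENSBTAG00000015924, the 4 with the fewest intermediate cows. ENSBTAG00000016063 and ENSBTAG00000039664 had no read in 29 and 19 cows. Such ties lower the highest rho that can be reached with a gene free of ties, so 0.7 was harder to reach for them.

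Levels of the 14 genes were also set beside depth. Their Spearman rho with the total count lay between -0.332 (ENSBTAG00000052689) and 0.182 (ENSBTAG00000019200), with the number of detected genes between -0.0945 (ENSBTAG00000038128) and 0.289 (ENSBTAG00000011660), and with the share of counts in a library's 10 most abundant genes between -0.331 (ENSBTAG00000038128) and 0.351 (ENSBTAG00000016063). The part of depth or of those abundant genes in the levels was not tested.

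The first comparison set the day 4 levels of cows found pregnant around day 30 against those of cows found nonpregnant. None of the 14 genes passed the threshold (edgeR quasi-likelihood test adjusted for block, Benjamini-Hochberg adjusted p under 0.05 over 15938 genes), and the share of all tested genes that passed was 0%. DESeq2, limma voom and limma on rank scores also called 0 of the 14. At an unadjusted p under 0.05 there were 2 of the 14 by edgeR, 2 by DESeq2, 0 by limma voom and 0 on rank scores, beside 2.99% of all genes by edgeR. Of the 15938 genes, 585 were under 0.05 by DESeq2, 366 by limma voom and 413 on rank scores. In pregnant cows 3 of the 14 had a higher fitted level and 11 a lower one. Their median log2 fold change (pregnant over nonpregnant) was -0.39, beside 0.0026 over all genes tested. The median absolute log2 fold change was 0.50 for the 14 genes and 0.088 over all genes. Some of the 14 vary together (Spearman rho up to 0.705), so their directions are not independent, and the lean was not tested. In the alternative fits, 14 of 138 values for the 14 genes had the opposite sign. The median 95% half-width was 1.54 on the log2 scale for the 14 genes and 0.29 over all genes. The rule itself selects genes that spread widely between cows, so wide intervals come with the choice of genes and are no finding.

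ENSBTAG00000050136 had the smallest p of the 14 by outcome. In pregnant cows it ran from 0 to 15.5 CPM with a median of 1.14, and in nonpregnant cows from 0 to 96.4 CPM with a median of 1.12. The outcomes overlapped over the whole range of the pregnant cows, and 3 nonpregnant cows lay above all pregnant ones. The gene was present in 8 of 25 pregnant and 4 of 18 nonpregnant cows, while the pregnant cows averaged 3.44 ± 4.34 CPM (SD, n = 25) and the nonpregnant cows 11.1 ± 24.7 CPM (SD, n = 18). On the log2 scale the difference was -2.11 ± 0.81 (SE; 95% interval -3.75 to -0.47; edgeR unadjusted p = 0.0127, adjusted p = 1.00), and it was -0.40 in limma voom. Without nonpregnant replicate 12 it was -0.87. Within block 2 it was -1.36 and within block 1 -2.83, neither past the threshold.

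ENSBTAG00000020676 followed. Its levels ran from 0 to 9.29 CPM in pregnant cows and from 0 to 22.1 CPM in nonpregnant cows, with medians of 0.942 and 0.973 CPM. The 4 highest cows were all nonpregnant, and below them the outcomes overlapped. The log2 fold change was -1.54 ± 0.64 (SE; edgeR unadjusted p = 0.0203, adjusted p = 1.00), -0.79 without nonpregnant replicate 9, and -1.59 and -1.49 within block 2 and block 1. The third smallest p belonged to ENSBTAG00000052689, whose median was 0.867 CPM among pregnant cows and 1.90 CPM among nonpregnant cows, and whose log2 difference was -1.26 ± 0.65 (SE; edgeR adjusted p = 1.00). Without nonpregnant replicate 12 that difference was -0.47.

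**Figure D4:**
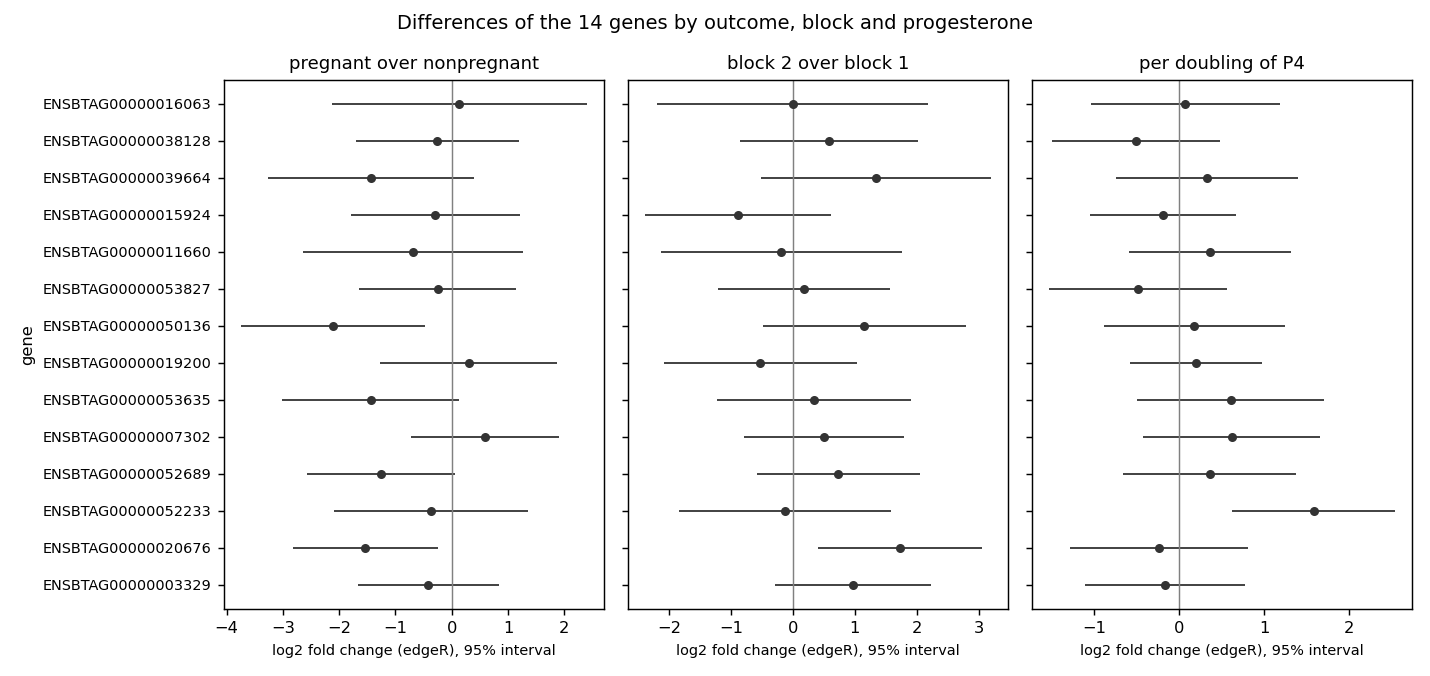
Fitted log2 fold change of each of the 14 genes with its 95% interval, for pregnant over nonpregnant cows (left), block 2 over block 1 (middle) and per doubling of P4 (right), from edgeR. The intervals are wide, with a median half-width of 1.54, 1.53 and 1.03, and no gene passed the adjusted threshold in any panel.

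The second comparison was between the rounds of synchronization, with outcome in the model. No gene of the 14 passed (edgeR, 0 of 14, beside 0.301% of all tested genes; 0 of 14 also by DESeq2, limma voom and rank scores). Of the 15938 genes tested, DESeq2 called 220, limma voom 58 and rank scores 0. At an unadjusted p under 0.05 there was 1 of the 14 by edgeR and 1 by DESeq2, and 0 by the other tools, beside 14.1% of all genes by edgeR. All genes under 0.05 numbered 2451 by DESeq2, 1961 by limma voom and 2108 on rank scores. Fitted levels were higher in block 2 for 9 genes and lower for 5, with a median log2 fold change of 0.42 beside -0.01 over all genes.

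The gene below the unadjusted 0.05 was ENSBTAG00000020676. It ran from 0 to 22.1 CPM in block 2 with a median of 1.25, and from 0 to 17 CPM in block 1 with a median of 0.599. It was present in 8 of 22 cows of block 2 and 1 of 21 cows of block 1, that cow being nonpregnant replicate 9. The log2 fold change was 1.73 ± 0.66 (SE; 95% interval 0.41 to 3.05; edgeR unadjusted p = 0.0114, adjusted p = 0.211). It was 1.68 in pregnant and 1.80 in nonpregnant cows fitted alone, and 2.45 without nonpregnant replicate 9 (edgeR adjusted p = 0.0674). ENSBTAG00000003329 came next, with 0.97 ± 0.62 (SE; edgeR adjusted p = 0.469), present in 6 cows of block 2 and 2 of block 1, and had 0.56 without pregnant replicate 11. ENSBTAG00000039664 followed, with 1.35 ± 0.92 (SE; edgeR adjusted p = 0.504), and had 2.66 without pregnant replicate 6.

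The third comparison related the levels to blood P4, the hormone of the corpus luteum, with block in the model. None of the 14 slopes passed by edgeR (0 of 14, beside 0.609% of all tested genes), by limma voom or on rank scores, and 1 passed by DESeq2. Of the 15938 genes tested, DESeq2 called 276, limma voom 35 and rank scores 0. DESeq2 gave no adjusted p for 309 of these genes, so its adjustment covered fewer genes than that of edgeR. At an unadjusted p under 0.05 there was 1 of the 14 by edgeR, 1 by DESeq2, 2 by limma voom and 0 on rank scores, beside 16.3% of all genes by edgeR. All genes under 0.05 numbered 2724 by DESeq2, 2494 by limma voom and 2386 on rank scores. Slopes per doubling of P4 were positive in 9 genes and negative in 5, with a median of 0.19 beside -0.01 over all genes.

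The gene that passed by DESeq2 was ENSBTAG00000052233, whose edgeR slope was 1.58 ± 0.48 (SE; 95% interval 0.62 to 2.54; edgeR unadjusted p = 0.00178, adjusted p = 0.0890). Among the 14 cows with the most P4 it was present in 6 and absent in 4, and reached 62.1 CPM. Among the 14 cows with the least P4 it was present in 1 and absent in 3, and reached 9.92 CPM. The median was 0.746 CPM at high P4 and 1.20 CPM at low P4, so the highest cows and the medians ran in opposite orders. The slope was -0.13 in limma voom (adjusted p = 0.939) and 0.066 on rank scores (limma adjusted p = 0.903), so its direction differed between tools. It was 1.14 without nonpregnant replicate 9 (edgeR adjusted p = 0.140), 1.66 without pregnant replicate 13 (edgeR adjusted p = 0.0405), 1.10 within block 2 and 1.80 within block 1. In DESeq2 the slope was 1.58 with an adjusted p of 0.0399. The next smallest p belonged to ENSBTAG00000007302 and ENSBTAG00000053635, with slopes of 0.62 ± 0.52 and 0.61 ± 0.55 (SE; edgeR adjusted p = 0.584 and 0.614). Without nonpregnant replicate 9 the slope of ENSBTAG00000053635 was 0.25. The 2 genes under an unadjusted 0.05 by limma voom were ENSBTAG00000015924 and ENSBTAG00000020676, with slopes of -1.64 and -1.35 (limma voom adjusted p = 0.208 and 0.204). By edgeR their slopes were -0.19 ± 0.43 and -0.24 ± 0.52 (SE; edgeR adjusted p = 0.862 for both). Within block 2 the edgeR slope of ENSBTAG00000020676 was -1.75 and within block 1 it was 0.99, neither past the threshold, and the difference between blocks was not tested.

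**Figure D5:**
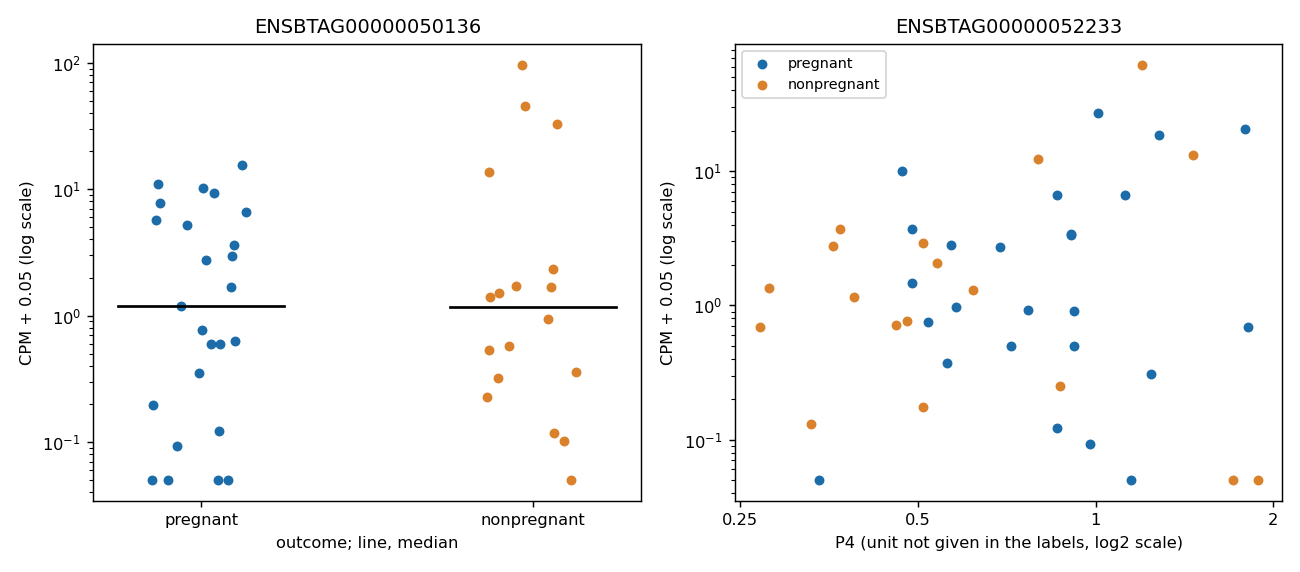
Left, ENSBTAG00000050136 in pregnant and nonpregnant cows with the median as a line; right, ENSBTAG00000052233 against P4 on a log2 axis, both as CPM plus 0.05 on a log scale with 1 point per cow. The medians on the left nearly coincide (1.14 and 1.12 CPM) although the highest nonpregnant cow reaches 96.4 CPM, and on the right both the highest levels and several levels near 0 belong to cows of high P4.

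ENSBTAG00000016063, the gene that divided the cows most sharply, gave fitted differences whose sign turned on single cows. Its log2 fold change was 0.13 for pregnant over nonpregnant cows (95% interval -2.14 to 2.40) and -0.0057 for block 2 over block 1 (-2.19 to 2.18), and its slope on P4 was 0.07 (-1.04 to 1.18), none past the threshold by edgeR (adjusted p = 1.00, 0.999 and 0.969). Leaving out 1 cow moved the outcome value between -1.98 (without pregnant replicate 16) and 1.15 (without nonpregnant replicate 3). The block value moved between -0.95 (without nonpregnant replicate 3) and 2.19 (without pregnant replicate 16), and the slope between -0.65 (without pregnant replicate 16) and 0.89 (without nonpregnant replicate 17). Within block 2 the outcome value was 1.14 and within block 1 -0.75. ENSBTAG00000038128 had 0.58 for block 2 over block 1 (-0.86 to 2.02) and -0.25 for pregnant over nonpregnant cows (-1.70 to 1.20). Its block value was -0.093 without pregnant replicate 11, and its outcome value was 0.21 without nonpregnant replicate 12 and -0.85 without pregnant replicate 11. These intervals hold under the edgeR model only and do not show that the groups were alike. For ENSBTAG00000016063 the SE of the outcome value was 1.13 in edgeR and 1.93 in DESeq2.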

How the data were processed

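Every library came with its own deposited table of raw counts over 27570 Ensembl gene identifiers of cattle, as the authors made them. Tools named in the submitters' processing notes are HTSeq, HISAT2, Trim Galore 0.4.4 and FastQC 0.11.7, with the build ARS-UCD1.2. How HTSeq treated strand and reads that fit several genes is not given in the sources used here, nor is the release of the annotation, so reads of overlapping or near-identical genes may be split or lost. The gene table used here (37063 genes) lists no Ensembl identifiers, 0 identifiers were matched to symbols, and the lists of cell type markers and other gene lists could not be counted.

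CPM used plain library totals. Tests used edgeR 4.0.16 (TMM factors 0.843 to 1.14, robust quasi-likelihood F-test, R 4.3.3) on 15938 genes with the CPM of 10 counts at the median library in at least 8 libraries. All 14 genes passed that filter, which ignores the groups, and 12 would pass filterByExpr with a smallest group of 18. SE is the absolute log2 fold change over the square root of F. DESeq2 1.42.0 and limma 3.58.1 (voom, and normal scores of ranks) were alternatives. The named genes are members called or among the 3 smallest p in a comparison, those with fewest intermediate cows, highest maximum, joined or opposed patterns, the edges of the rule and genes most alike to 5 members. The members and lists were chosen with earlier results of these data known.

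The edgeR script was also tested on simulated data. The highest correlation between 2 libraries was 0.979, and no library was treated as a copy of another.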

Additional observations from a re-analysis of the deposited data

How the results depend on the processing

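The rule is sensitive to its limits, and the cause was not tested. It was met by 7 genes with 0.1 CPM as the lower limit, 41 with 6 cows and 13 with TMM-scaled totals. With 10 CPM as the upper limit 3 genes met it, ENSBTAG00000015924, ENSBTAG00000038128 and ENSBTAG00000053827. With 10 cows 3 others met it, ENSBTAG00000019200, ENSBTAG00000039664 and ENSBTAG00000050136. ENSBTAG00000016063, the gene that divided the cows most sharply, was in neither set of 3. No member was called by outcome or block under any alternative, and by P4 only ENSBTAG00000052233 was, with a slope of 1.58 in DESeq2 and 1.66 without pregnant replicate 13. Over all genes, the outcome comparison called 5 with no low-count filter and 0 otherwise, also without any 1 cow (0 to 0). The 48 genes called by block became 220 with DESeq2, 0 on rank scores, 27 without the outcome term, 242 in pregnant cows alone and 0 in nonpregnant cows alone. The 97 genes called by P4 became 276 with DESeq2, 35 with limma voom, 0 on rank scores, 181 with no low-count filter, 15 with outcome in the model, 26 with untransformed P4, 154 with the rank of P4, and 0 in block 1 alone and 0 in block 2 alone. Without 1 cow, block called 11 (nonpregnant replicate 5) to 329 (nonpregnant replicate 7) and P4 called 6 (nonpregnant replicate 13) to 572 (pregnant replicate 13). Leaving out 1 cow raised the block count over 1.5 times for 4 cows and lowered it so for 19, and for P4 7 and 12. No paired analysis was possible because the replicate numbers are names in accession order and link no cows. Depth limits the low end, where 0.2 CPM is 2.23 to 4.71 reads.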
